A study of Mus musculus with 12 samples.

Results

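The genes described here are 35 markers of immune cells and of antigen presentation, read in the RNA of isolated pancreatic islets. A gene was taken when the name of its entry in the deposited table was the gene's symbol, and 34 of the 35 were found among 24078 entries. The entry of Spi1, a myeloid transcription factor, was left out because no entry carries that name; an entry under its older symbol Sfpi1 ranged from 0 to 1.79 RPKM and is not counted here. The markers comprise 5 genes shared by leukocytes, 9 of macrophage and myeloid identity, 7 of myeloid signalling, complement, lysosome and oxidase, 4 of MHC class II, 4 of MHC class I, 4 of T cells and 1 of B cells.

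Islets were taken from male F2 hybrid mice from a cross of C57BL/6 with another inbred strain, aged 5 to 6 months, with 4 WT, 4 Wfs1HZ and 4 Wfs1KO animals and 1 library for each animal. WT animals carried no targeted allele, Wfs1HZ animals carried a single copy of the Wfs1tm1Koks allele and Wfs1KO animals carried it on both chromosomes. That allele replaces most of the last coding exon with LacZ in every cell of the body, and a truncated fusion transcript is still made; Wfs1 itself stood at 24.85 to 33.94 RPKM in WT, 4.69 to 16.43 RPKM in Wfs1HZ and 2.45 to 6.61 RPKM in Wfs1KO. The islets of all 3 genotypes were released with collagenase, picked by hand and kept overnight in high glucose medium before RNA was extracted. RPKM, the number of reads scaled by transcript length and by library size, allows levels to be compared between genes.

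Islets hold resident macrophages that lie along capillaries and contact beta cells, while T and B cells are rare in islets of mice without autoimmunity. MHC class I, built from a heavy chain and beta-2 microglobulin and loaded with peptides that the TAP transporter brings into the endoplasmic reticulum, is present on nearly every nucleated cell including beta cells. MHC class II, with its invariant chain Cd74, is made mainly by macrophages, dendritic cells and B cells. In bulk RNA fewer cells of a type and less RNA per cell cannot be told apart, and no immune cell was counted.

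The promoters of class I and class II genes are shown first because B2m, H2-K1 and H2-D1 hold the 3 highest levels among the markers and because Tap1 had the smallest p among the members of its class. RefSeq (GRCm38.p6) gave a start site for 26 of the 34 genes; Cd52, Csf1r, Cd14, Tyrobp, C1qa, Cd74, H2-Ab1 and Cd4 had no entry. Each line gives the 250 bases before a start site, read 5′ to 3′ on the gene's own strand. Capitals mark matches on either strand to CCAAT, to the kappa B pattern GGGNNTTCC where N is any base, and to the interferon response pattern, which is GAAA, any 2 bases and GAAA again, and no marked matches overlap; CCAAT on the other strand reads ATTGG.
Tap1, chr17:34187306-34187555, plus strand: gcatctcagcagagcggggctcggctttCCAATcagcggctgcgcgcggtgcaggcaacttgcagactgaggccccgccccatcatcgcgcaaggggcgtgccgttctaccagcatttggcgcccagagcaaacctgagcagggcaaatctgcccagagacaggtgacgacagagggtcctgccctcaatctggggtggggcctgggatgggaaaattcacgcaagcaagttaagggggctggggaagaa
B2m, chr2:122147437-122147686, plus strand: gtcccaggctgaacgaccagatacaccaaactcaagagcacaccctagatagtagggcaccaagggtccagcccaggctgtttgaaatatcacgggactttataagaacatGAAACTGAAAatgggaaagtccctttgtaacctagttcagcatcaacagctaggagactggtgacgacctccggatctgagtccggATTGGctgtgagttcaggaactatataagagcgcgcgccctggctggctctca
H2-K1, chr17:34000348-34000597, minus strand: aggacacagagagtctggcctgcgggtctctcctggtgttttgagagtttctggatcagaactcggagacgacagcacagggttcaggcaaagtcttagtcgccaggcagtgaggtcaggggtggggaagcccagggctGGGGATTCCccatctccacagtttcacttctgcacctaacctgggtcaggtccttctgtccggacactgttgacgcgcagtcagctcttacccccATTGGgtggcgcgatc
H2-D1, chr17:35262844-35263093, plus strand: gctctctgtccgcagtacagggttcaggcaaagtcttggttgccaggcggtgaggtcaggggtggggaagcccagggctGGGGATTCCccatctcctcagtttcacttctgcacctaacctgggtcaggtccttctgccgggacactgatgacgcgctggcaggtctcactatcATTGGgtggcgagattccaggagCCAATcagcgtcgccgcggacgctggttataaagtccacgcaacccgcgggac
H2-Aa, chr17:34287824-34288073, minus strand: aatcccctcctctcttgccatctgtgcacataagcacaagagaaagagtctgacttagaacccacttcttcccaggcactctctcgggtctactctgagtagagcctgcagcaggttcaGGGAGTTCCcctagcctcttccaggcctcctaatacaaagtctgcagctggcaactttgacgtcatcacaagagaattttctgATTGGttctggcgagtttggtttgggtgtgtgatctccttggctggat
H2-Eb1, chr17:34305617-34305866, plus strand: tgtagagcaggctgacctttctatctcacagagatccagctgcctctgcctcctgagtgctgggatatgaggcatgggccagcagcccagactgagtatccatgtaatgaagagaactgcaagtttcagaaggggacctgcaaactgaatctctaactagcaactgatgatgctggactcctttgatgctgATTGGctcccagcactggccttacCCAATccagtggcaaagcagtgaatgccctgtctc

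H2-K1 and H2-D1, the classical class I heavy chains, share an unbroken run of 47 bases in these windows. Their kappa B matches begin 111 and 171 bases before the RefSeq start. The first CCAAT matches after them begin 16 and 76 bases before it. In the GENCODE M21 annotation H2-D1 begins at 35262730, ahead of its printed window, so these distances depend on the annotated start. The table holds 2 start sites for H2-K1, of which the first is printed. The window of Tap1 overlaps that of Psmb9, an immunoproteasome subunit transcribed in the opposite direction, by 225 bases. CCAAT was found in 33.8% of the 32851 windows in the table and in the windows of 13 of the 26 genes. The kappa B pattern was found in 4.98% of all windows and in those of Mrc1, Cd3g, H2-K1, H2-D1 and H2-Aa. The interferon response pattern was found in 2.98% of all windows and in those of B2m, Ctss, Aif1 and Cybb. The GAS pattern TTCNNNGAA occurs in 7.02% of all windows and in none of these 26 genes, and GAGGAAG, a core pattern of the factor PU.1, in 10.6% of all windows and in those of C1qc, Itgam, Laptm5 and Mrc1. These are matches of letters, and no binding was measured.

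The libraries differ in depth and in background. The reads behind the RPKM numbered about 2190000 to 9580000 for each library, and 3 reads of a 2 kb transcript would give 0.157 to 0.684 RPKM, a floor that covers counting error only. Wfs1HZ replicate 2 stood apart from the others. The mean of 1126 olfactory receptor entries, genes known mainly from the olfactory epithelium, was 2.63 RPKM there and 0.13 to 0.574 RPKM in the other 11 libraries, and this library was also the shallowest. It held the highest value of 10 of the 34 genes, among them 5 of macrophage identity, 3 of T cells and Cd79a, and 15 of the 34 genes were there at or under the olfactory receptor mean. The median RPKM over all entries was 3.37 in that library and 0.75 to 1.73 in the other 11. The share of all entries with their highest value there was not counted. Neither count can therefore be read as a trait of the immune genes. The summed RPKM of fibroblast, stellate and mural (stromal) markers was also highest in Wfs1HZ replicate 2, at 549, as was that of erythroid markers, at 126. Wfs1KO replicate 4 came next for the olfactory receptor mean and for the stromal sum, at 245, and WT replicate 3 for the erythroid sum, at 38.45. The part of this background, or of these other cell types, in the levels of the immune genes was not tested. Several values below are given without Wfs1HZ replicate 2 or Wfs1KO replicate 4 as well.

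**Figure D1:**
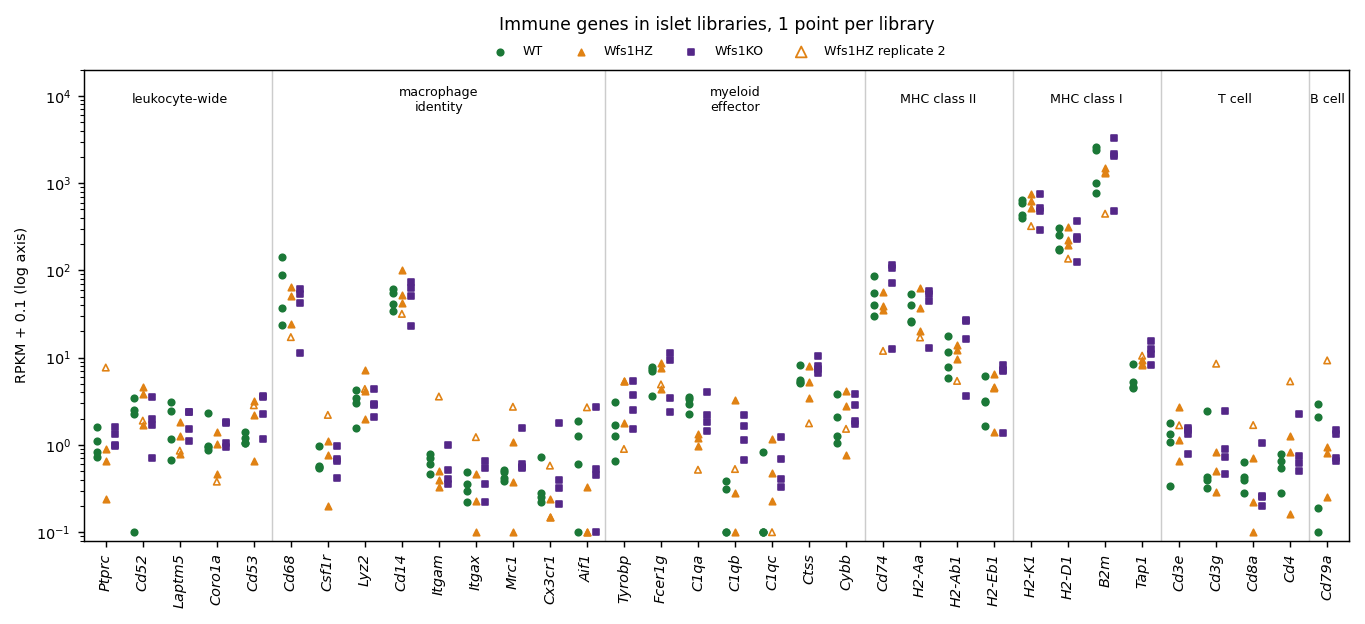
The RPKM + 0.1 of 34 immune genes in each of 12 islet libraries, on a log axis, grouped by role; each point is 1 library, with WT as circles, Wfs1HZ as triangles and Wfs1KO as squares, and Wfs1HZ replicate 2 as an open triangle. B2m, H2-K1 and H2-D1 lie highest, with medians up to 1413 RPKM, and most T cell, B cell and myeloid identity genes lie near 1 RPKM or below.

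The levels spanned more than 3 orders of magnitude. By the median over the 12 libraries, 3 genes were at 100 RPKM or more, 5 between 10 and 100 RPKM, 12 between 1 and 10 RPKM and 14 under 1 RPKM. The 3 highest were B2m at 1413 RPKM, H2-K1 at 520 RPKM and H2-D1 at 226 RPKM, all of class I. The next were Cd14, Cd74, Cd68, H2-Aa and H2-Ab1, with medians from 51.5 down to 11.9 RPKM. Ptprc, the phosphatase CD45 that marks all leukocytes, had a median of 0.89 RPKM, so that Cd14 and Cd68, usually taken as macrophage genes, stood far above the marker of the cells they are assigned to.

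Among the leukocyte-wide genes Cd52, a small surface glycoprotein, was 3.38, 2.43, 0 and 2.16 RPKM in WT replicates 1 to 4, 4.48, 1.80, 3.76 and 1.58 RPKM in Wfs1HZ, and 1.86, 1.61, 3.43 and 0.60 RPKM in Wfs1KO. The 3 genotypes overlapped. Cd53, a leukocyte tetraspanin, was 1.29, 0.95, 1.09 and 0.94 RPKM in WT, 3.08, 2.75, 2.12 and 0.56 RPKM in Wfs1HZ, and 3.48, 3.52, 2.16 and 1.08 RPKM in Wfs1KO. In Wfs1KO 3 of 4 libraries lay above every WT library, and replicate 4 lay among them. Ptprc was 0.970 ± 0.397 RPKM in WT, 2.27 ± 3.57 RPKM in Wfs1HZ and 1.13 ± 0.304 RPKM in Wfs1KO (SD, n = 4), and its Wfs1HZ mean rests on 7.61 RPKM in replicate 2. Laptm5, a lysosomal membrane protein of blood cells, and Coro1a, an actin regulator, ranged from 0.57 to 3.02 RPKM and from 0.28 to 2.25 RPKM over all libraries.

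The macrophage identity genes formed a high and a low set. Cd68, an endolysosomal glycoprotein, was 87.6, 23.6, 37.0 and 142 RPKM in WT, 24.4, 17.1, 50.5 and 65.2 RPKM in Wfs1HZ, and 60.7, 42.4, 54.0 and 11.1 RPKM in Wfs1KO. WT libraries spread over the widest range and covered nearly all values of the other genotypes. Cd14, the co-receptor for lipopolysaccharide, was 41.1, 33.99, 61.8 and 55.6 RPKM in WT, 100, 31.7, 51.9 and 42.4 RPKM in Wfs1HZ, and 74.5, 51.2, 62.9 and 22.7 RPKM in Wfs1KO. Lyz2, the lysozyme of myeloid cells, ranged from 1.47 to 7.10 RPKM with no separation of genotypes.

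The remaining identity genes were low. Csf1r, the receptor for the growth factor of macrophages, ranged from 0.44 to 0.88 RPKM in WT, from 0.10 to 2.11 RPKM in Wfs1HZ and from 0.32 to 0.86 RPKM in Wfs1KO. Its highest value, in Wfs1HZ replicate 2, lay under the olfactory receptor mean of that library. Mrc1, a mannose receptor of resident macrophages, ranged from 0.29 to 0.42 RPKM in WT, from 0 to 2.64 RPKM in Wfs1HZ and from 0.45 to 1.48 RPKM in Wfs1KO. Itgam and Itgax, the integrin chains CD11b and CD11c, and Cx3cr1, the fractalkine receptor, reached at most 0.68, 0.39 and 0.62 RPKM in WT. Aif1, a calcium-binding protein of macrophages, was listed at 0 in 4 of the 12 libraries and reached 2.60 RPKM in Wfs1HZ replicate 2 and in Wfs1KO replicate 2. Of the transcript of Itgam, 71.7% of the 75-base windows are shared with the annotated gene Gm49368, and 17.3% of those of Csf1r with Hmgxb3 on the opposite strand, so that their reads cannot be divided with certainty.

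Of the myeloid effector genes Ctss, the lysosomal protease cathepsin S, was 5.20, 5.01, 8.07 and 5.52 RPKM in WT, 7.91, 1.67, 5.10 and 3.37 RPKM in Wfs1HZ, and 10.3, 6.58, 7.85 and 7.37 RPKM in Wfs1KO. Fcer1g, the signalling chain of Fc receptors, was 6.92, 3.56, 7.81 and 7.35 RPKM in WT, 7.44, 4.84, 8.66 and 4.23 RPKM in Wfs1HZ, and 11.1, 9.37, 3.39 and 2.30 RPKM in Wfs1KO. Wfs1KO libraries therefore held both the highest and the lowest values of Fcer1g. Tyrobp, an adaptor of myeloid receptors, was 1.59 ± 1.05 RPKM in WT, 3.27 ± 2.37 RPKM in Wfs1HZ and 3.22 ± 1.69 RPKM in Wfs1KO (SD, n = 4). Cybb, the catalytic subunit of the phagocyte oxidase, ranged from 0.95 to 3.73 RPKM in WT, from 0.67 to 4.06 RPKM in Wfs1HZ and from 1.65 to 3.77 RPKM in Wfs1KO.

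The complement subunit C1q is assembled from equal numbers of chains encoded by C1qa, C1qb and C1qc, which lie side by side on chromosome 4 (mm10, minus strand, C1qb from 136880129 to 136886187, C1qc from 136889804 to 136893065 and C1qa from 136895917 to 136898803). C1qa was 3.24, 3.49, 2.83 and 2.15 RPKM in WT, 0.87, 0.42, 1.25 and 1.10 RPKM in Wfs1HZ, and 2.11, 1.34, 1.71 and 3.90 RPKM in Wfs1KO. Every Wfs1HZ library lay under every WT and every Wfs1KO library. C1qb was 0, 0.21, 0 and 0.29 RPKM in WT, 0.18, 0.43, 3.18 and 0 RPKM in Wfs1HZ, and 1.56, 2.13, 1.04 and 0.57 RPKM in Wfs1KO, and here WT lay under Wfs1KO. C1qc was listed at 0 in 3 WT libraries and was 0.74 RPKM in WT replicate 4, and it was 1.07, 0, 0.13 and 0.38 RPKM in Wfs1HZ and 0.59, 0.31, 0.23 and 1.14 RPKM in Wfs1KO. The chains thus did not keep a common ratio across genotypes. They rest on few reads: summed over 4 libraries, about 84.8 reads of C1qa, 4.0 of C1qb and 5.7 of C1qc in WT, 21.1, 27.4 and 10.2 in Wfs1HZ, and 57.2, 41.6 and 15.8 in Wfs1KO. In Wfs1HZ 25.4 of the 27.4 reads of C1qb came from replicate 3.

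**Figure D2:**
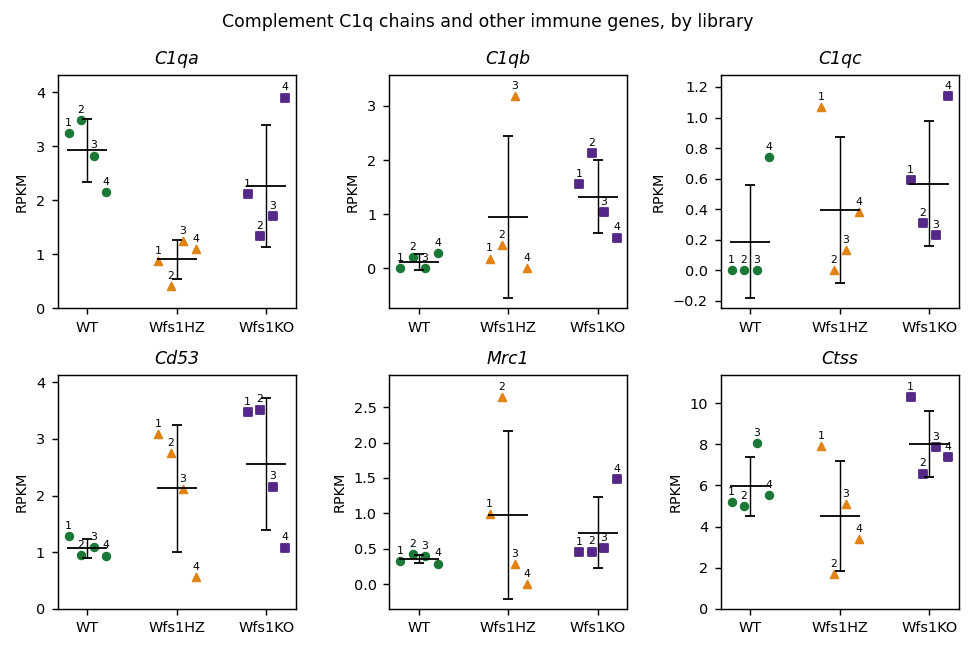
RPKM of the 3 C1q chains and of Cd53, Mrc1 and Ctss in each library, by genotype; numbers are replicate numbers, the wide bar is the mean and the whiskers are 1 SD (n = 4). C1qa is lowest in Wfs1HZ (0.42 to 1.25 RPKM), whereas C1qb is lowest in WT (0 to 0.29 RPKM).

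B2m, H2-K1 and H2-D1 of MHC class I were the most abundant of the 34 genes. B2m, the light chain, was 2576, 774, 1015 and 2406 RPKM in WT, 1295, 446, 1484 and 1342 RPKM in Wfs1HZ, and 3291, 2179, 2060 and 482 RPKM in Wfs1KO. H2-K1 was 649, 426, 395 and 591 RPKM in WT, 629, 322, 753 and 516 RPKM in Wfs1HZ, and 755, 524, 477 and 293 RPKM in Wfs1KO. The lowest values of H2-K1 and H2-D1 were in Wfs1KO replicate 4 and the lowest of B2m in Wfs1HZ replicate 2, while Wfs1KO replicate 1 was the highest library for all 4 class I genes. H2-D1 was 226 ± 63.8 RPKM in WT, 217 ± 73.2 RPKM in Wfs1HZ and 241 ± 98.7 RPKM in Wfs1KO (SD, n = 4). Of the 75-base windows of H2-D1, 7.1% also occur in other genes, mostly in H2-Q1, and 1.55% of those of H2-K1 in H2-D1.

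Tap1, one chain of the peptide transporter, behaved differently from the heavy chains. It was 5.19, 4.48, 4.39 and 8.43 RPKM in WT, 9.22, 10.4, 8.43 and 8.06 RPKM in Wfs1HZ, and 15.5, 10.8, 12.4 and 8.19 RPKM in Wfs1KO. In WT replicate 4 Tap1 was as high as in the lower Wfs1HZ libraries, and the other 3 WT libraries lay under all 8 libraries of both mutant genotypes. Its exons share 212 bases with Psmb9 on the opposite strand, and 4.79% of its 75-base windows are found there.

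Class II genes varied widely between animals of a genotype, and the genotypes overlapped. Cd74 was 39.6, 29.8, 55.4 and 85.8 RPKM in WT, 39.5, 11.9, 56.8 and 35.2 RPKM in Wfs1HZ, and 108, 116, 72.5 and 12.6 RPKM in Wfs1KO. H2-Aa, the alpha chain of the I-A molecule, was 25.9, 25.3, 53.6 and 39.7 RPKM in WT, 36.9, 17.0, 63.0 and 20.2 RPKM in Wfs1HZ, and 54.2, 57.5, 44.4 and 12.7 RPKM in Wfs1KO. Wfs1KO replicate 4 was under every WT library for both genes. H2-Ab1, the matching beta chain, and H2-Eb1, the beta chain of I-E, were likewise lowest in that library within Wfs1KO, with 26.3, 26.9, 16.5 and 3.55 RPKM of H2-Ab1 and 8.20, 6.97, 7.09 and 1.27 RPKM of H2-Eb1 in Wfs1KO replicates 1 to 4. In WT they ranged from 5.78 to 17.6 RPKM and from 1.56 to 6.13 RPKM, and in Wfs1HZ from 5.32 to 13.8 RPKM and from 1.30 to 6.48 RPKM.

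**Figure D3:**
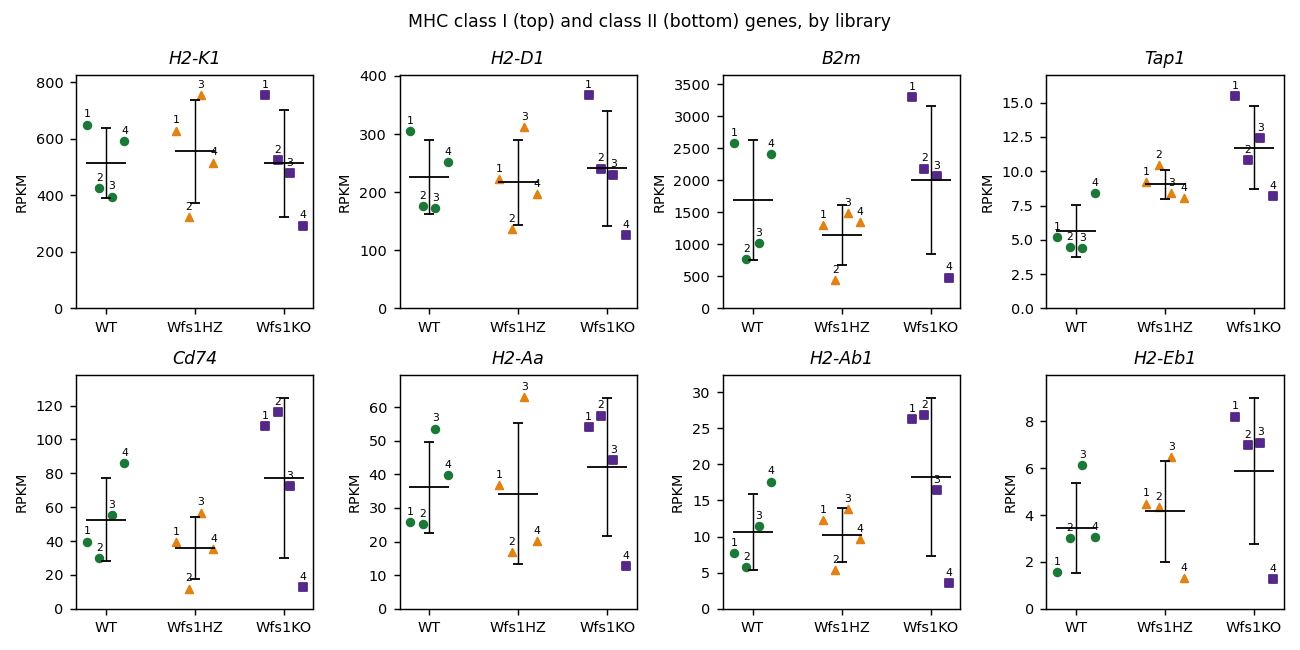
RPKM of 4 MHC class I genes (top) and 4 class II genes (bottom) in each library, by genotype; numbers are replicate numbers, the wide bar is the mean and the whiskers are 1 SD (n = 4). Tap1 is 8.06 RPKM or more in every Wfs1HZ and Wfs1KO library, and Wfs1KO replicate 4 is the lowest Wfs1KO library in all 8 panels.

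T and B cell genes were near the limit of detection. Cd3e, a chain of the T cell receptor complex, was 0.24, 1.24, 1.67 and 0.98 RPKM in WT, 2.62, 1.58, 1.04 and 0.55 RPKM in Wfs1HZ, and 1.23, 0.68, 1.38 and 1.47 RPKM in Wfs1KO. Cd3g, another chain of that complex, was 0.33, 0.22, 2.34 and 0.30 RPKM in WT, 0.74, 8.44, 0.40 and 0.19 RPKM in Wfs1HZ, and 0.81, 0.63, 0.36 and 2.37 RPKM in Wfs1KO. The highest value, in Wfs1HZ replicate 2, stands for about 18.9 reads. Cd4 and Cd8a, the co-receptors of helper and cytotoxic T cells, were 0.463 ± 0.212 RPKM and 0.338 ± 0.150 RPKM in WT and 0.927 ± 0.821 RPKM and 0.343 ± 0.412 RPKM in Wfs1KO (SD, n = 4), with up to 5.26 and 1.59 RPKM in Wfs1HZ replicate 2. Cd79a, the signalling chain of the B cell receptor, was 0.09, 2.01, 2.83 and 0 RPKM in WT, 0.85, 9.21, 0.71 and 0.15 RPKM in Wfs1HZ, and 1.25, 0.61, 0.56 and 1.37 RPKM in Wfs1KO. The genotypes overlapped, and 2 WT libraries lay at or near 0.

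The first comparison, Wfs1KO with WT, asks whether the immune genes of islets differ when Wfs1 is lost. None of the 34 genes passed an FDR of 0.05 by limma (0 called), where 0.0138% of all 21701 entries tested did. At an unadjusted p under 0.05 there were 3 of 34 genes, all higher in Wfs1KO, where 5.64% of all entries passed (3.91% higher). The libraries of both genotypes did not overlap for 2 genes, both higher in Wfs1KO, where 1.75% of all entries were (2.74% in either direction). All fold changes are differences of mean log2(RPKM + 0.1), and higher or lower refers to that scale. For low or uneven genes they can differ in size, and in sign, from the ratio of mean RPKM. C1qb was higher in Wfs1KO by 2.80 (SE 0.63, limma p = 0.0016, adjusted p = 0.624), and its libraries did not overlap (p = 0.029 by an exact permutation test, two-sided, which cannot give less with 4 libraries a group). WT held about 4.0 reads of C1qb in all, so that the size depends on the pseudocount and lay between 1.01 and 4.56 over the alternatives. Tap1 was higher by 1.06 (SE 0.28, limma p = 0.0039, adjusted p = 0.835; exact permutation p = 0.057) and lay between 0.92 and 1.27 over the alternatives. Cd53 was higher by 1.06 (SE 0.42, limma p = 0.0314, adjusted p = 0.844; exact permutation p = 0.086), and its unadjusted p stayed under 0.05 without WT replicate 1 and without Wfs1KO replicate 4, and was over 0.05 when any of the other 6 libraries was left out. Mrc1 did not overlap, with 0.42 RPKM as the highest WT and 0.45 RPKM as the lowest Wfs1KO library, but its difference of 0.71 (SE 0.47, limma p = 0.166, adjusted p = 0.905; exact permutation p = 0.029) became 0.34 without Wfs1KO replicate 4.

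By direction, 27 of the 34 genes had a higher mean log2 level in Wfs1KO than in WT, with a median log2 fold change of 0.29, where 57.4% of all entries were higher, with a median of 0.07. With each library left out in turn the number lay between 22 and 28. All 5 leukocyte-wide genes had higher mean log2 levels (median 0.24), as had 5 of 7 myeloid effector genes (median 0.44), 6 of 9 macrophage identity genes (median 0.04), 4 of 4 class II genes (median 0.40), 3 of 4 class I genes (median 0.08) and 3 of 4 T cell genes (median 0.49). Cd52 and Cd79a counted as higher, with log2 fold changes of 0.51 and 0.75, although their mean RPKM in Wfs1KO was 0.941 and 0.769 times that in WT, where 1 library of each was at 0. The T cell median was 0.19 without Wfs1KO replicate 4. The largest negative difference was that of Cd68, −0.70 (SE 0.67), and it was −0.15 without Wfs1KO replicate 4 and −0.27 without WT replicate 4. Wfs1KO replicate 4 decided much of the class II values. Without it the class II median was 1.10, and 3 of the 4 genes had an unadjusted limma p under 0.05: H2-Ab1 with a log2 fold change of 1.21 (SE 0.39), H2-Eb1 with 1.24 (SE 0.41) and Cd74 with 0.99 (SE 0.36), with adjusted p from 0.483 to 0.529. In that fit 7 members in place of 3 had an unadjusted p under 0.05, as had 1870 of all 21701 entries in place of 1225.

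**Figure D4:**
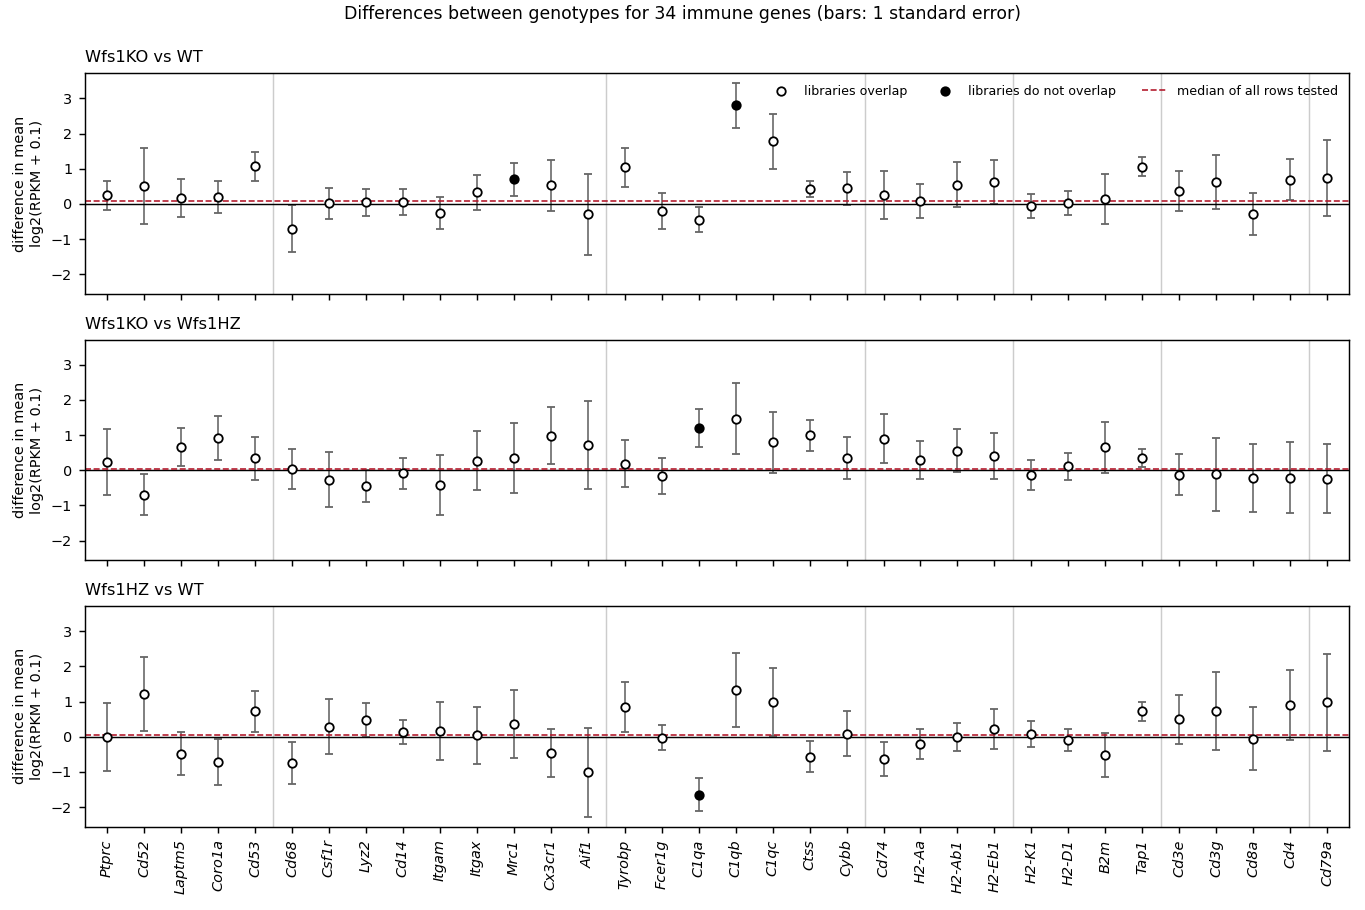
Difference in mean log2(RPKM + 0.1) for 34 immune genes in each pair of genotypes, with bars of 1 standard error; filled points mark genes whose libraries do not overlap and the dashed line is the median of all 21701 entries. C1qb (2.80) and Mrc1 (0.71) are filled for Wfs1KO against WT, C1qa (1.20) for Wfs1KO against Wfs1HZ and C1qa (−1.65) for Wfs1HZ against WT.

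The second comparison set Wfs1KO against Wfs1HZ, which differ in 1 copy of the allele. None of the 34 genes had an adjusted p under 0.05 (0% of all entries), and 1 had an unadjusted limma p under 0.05, where 2.45% of all entries did (1.7% higher). That gene, Ctss, was higher in Wfs1KO by 1.00 (SE 0.44, limma p = 0.0458, adjusted p = 1; exact permutation p = 0.114), and by 0.61 without Wfs1HZ replicate 2, and its unadjusted p stayed under 0.05 only when Wfs1HZ replicate 1 was the library left out. C1qa was the 1 gene whose libraries did not overlap (0.926% of all entries were higher without overlap, 1.43% in either direction), higher in Wfs1KO by 1.20 (SE 0.55, limma p = 0.0525, adjusted p = 1; exact permutation p = 0.029), and by 0.91 without Wfs1HZ replicate 2 and 0.62 without that library and Wfs1KO replicate 4. C1qb, next by p, differed by 1.47 (SE 1.00, limma p = 0.174, adjusted p = 1; exact permutation p = 0.257). In 22 of 34 genes Wfs1KO had the higher mean log2 level (53.5% of all entries), with a median of 0.28 against 0.04 for all entries. In Ptprc, Mrc1, Itgax and Tyrobp, which are among the 22, the mean RPKM in Wfs1KO was 0.498, 0.742, 0.853 and 0.985 times that in Wfs1HZ. The 4 T cell genes and Cd79a had differences of −0.12 to −0.24, which rest on Wfs1HZ replicate 2: without it 3 of the 4 T cell genes were higher in Wfs1KO (median 0.54, against −0.16 with it) and Cd79a differed by 0.77. Without Wfs1HZ replicate 4 the median of the 34 genes turned to −0.08 with 16 of 34 higher, beside a median of −0.20 for all entries. Without Wfs1HZ replicate 2 the median of the 34 genes was 0.43, beside 0.28 for all entries.

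The third comparison, Wfs1HZ with WT, addresses a single copy of the allele. No gene had an adjusted p under 0.05 (0% of all entries), and 2 had an unadjusted limma p under 0.05, where 2.35% of all entries did. C1qa was lower in Wfs1HZ by 1.65 on the log2 scale, a log2 fold change of −1.65 (SE 0.46, limma p = 0.0055, adjusted p = 1; exact permutation p = 0.029), and was the 1 gene whose libraries did not overlap, where 1.08% of all entries were lower without overlap, 0.576% higher and 1.66% either. Without Wfs1HZ replicate 2 its log2 fold change was −1.36. Tap1 was higher by 0.72 (SE 0.27, limma p = 0.0235, adjusted p = 1; exact permutation p = 0.086), with an unadjusted p over 0.05 without WT replicate 2 or WT replicate 3. Cd74, next by p, differed by −0.64 (SE 0.48, limma p = 0.213, adjusted p = 1; exact permutation p = 0.371), and by −0.18 without Wfs1HZ replicate 2. In 20 of 34 genes Wfs1HZ had the higher mean log2 level (53.2% of all entries), and the median was 0.08 against 0.04. Without Wfs1HZ replicate 4 the median was 0.52, beside 0.25 for all entries. The comparisons share libraries, and their values for one gene are not independent of each other.

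Other genes of the same pathways were read from lists of related genes. Of all entries tested 57.4% were higher in Wfs1KO than in WT, 53.5% in Wfs1KO than in Wfs1HZ and 53.2% in Wfs1HZ than in WT. An unadjusted limma p under 0.05 was found in 5.64%, 2.45% and 2.35% of them. Of 21 other class I pathway genes, 18 had a higher mean in Wfs1KO than in WT (median log2 fold change 0.37) and 19 a higher mean than in Wfs1HZ (median 0.49). Of these 21 genes 1 had an unadjusted p under 0.05 in Wfs1KO against WT, Tap2, the partner chain of Tap1, which was 1.96, 3.17, 3.15 and 3.06 RPKM in WT and 7.34, 6.76, 6.15 and 2.55 RPKM in Wfs1KO (log2 fold change 0.90, SE 0.36, limma adjusted p = 0.844). In Wfs1HZ against WT 15 of the 21 were lower, Erap1, an aminopeptidase that trims peptides, without overlap (log2 fold change −0.55, SE 0.24, limma adjusted p = 1). The immunoproteasome gene Psmb8 was 26.5 to 45.0 RPKM in WT, and 80.5, 74.4, 76.4 and 24.97 RPKM in Wfs1KO, where replicate 4 again was the lowest. Its unadjusted limma p was not under 0.05 in that comparison, and these genotypes overlapped.

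Of 15 other class II pathway genes 8 were higher in Wfs1KO than in WT (57.4% of all entries) and 10 higher than in Wfs1HZ (53.5% of all entries). H2-DMa, a chain of the peptide exchange factor H2-DM, was listed at 0 in Wfs1HZ replicate 2 and was 0.17 to 1.52 RPKM in the other Wfs1HZ libraries and 1.58 to 5.81 RPKM in Wfs1KO (log2 fold change 2.53, SE 0.89, limma adjusted p = 1; 1.83 without Wfs1HZ replicate 2 and 1.42 without that library and Wfs1KO replicate 4). Ifi30, a lysosomal reductase, was 29.3 to 61.7 RPKM in WT and 9.74 to 30.3 RPKM in Wfs1HZ (log2 fold change −0.94, SE 0.37, limma adjusted p = 1; −0.60 without Wfs1HZ replicate 2). Ciita, the transactivator of class II genes, stayed between 0.07 and 0.64 RPKM.

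Among 29 other macrophage genes tested, 17 were higher in Wfs1KO than in WT (57.4% of all entries), with a median of 0.09 (0.07 over all entries). Lyve1, a hyaluronan receptor of resident macrophages and lymphatic vessels, was 4.60, 3.96, 10.4 and 13.2 RPKM in WT, 10.6, 6.59, 10.7 and 6.45 RPKM in Wfs1HZ, and 3.57, 3.96, 2.88 and 2.20 RPKM in Wfs1KO. Its log2 fold change was −1.18 (SE 0.41, limma adjusted p = 0.835) against WT and −1.41 (SE 0.33, limma adjusted p = 1) against Wfs1HZ, the latter with no overlap. Clec10a, a lectin, was 0, 0.07, 0 and 0.1 RPKM in WT and 0.28, 0.22, 0.08 and 0.2 RPKM in Wfs1KO, with overlap. It differed from WT in Wfs1KO by 1.07 (SE 0.41, limma adjusted p = 0.84), a size that lay between 0.20 and 2.62 over the alternatives. Ms4a7 was 0.66 to 1.46 RPKM in WT and 0.66 to 0.97 RPKM in Wfs1KO, and was listed at 0 in 3 Wfs1HZ libraries and 0.48 RPKM in the other, without overlap in either comparison (limma adjusted p = 1). Fcgr4, an Fc receptor, was higher in Wfs1HZ than in WT by 2.29 (SE 0.75, limma adjusted p = 1).

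The partners of Cybb in the phagocyte oxidase had higher means in Wfs1KO than in WT in 4 of 5 genes. Of all entries 57.4% were higher in that comparison, and 1.75% were higher without overlap. Ncf4 was 0.55, 0.31, 0 and 0 RPKM in WT and 0.79, 1.00, 1.28 and 0.83 RPKM in Wfs1KO (log2 fold change 2.22, SE 0.68, limma adjusted p = 0.835), and Rac2 differed by 1.07 (SE 0.41, limma adjusted p = 0.84), both without overlap. Of 25 leukocyte signalling genes 18 had higher means in Wfs1KO than in WT, beside the same 57.4% of all entries. Cd44, an adhesion receptor that many cell types carry, was 37.9 to 50.9 RPKM in 3 WT libraries and 33.8 RPKM in the fourth, and 77.3, 89.4, 73.4 and 43.5 RPKM in Wfs1KO (log2 fold change 0.78, SE 0.24, limma adjusted p = 0.835); Ikzf1, a lymphoid factor, differed by 1.33 (SE 0.54, limma adjusted p = 0.844).

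Genes of other immune cells were mostly but not always low, since the neutrophil gene S100a9 reached 38.2 RPKM in WT replicate 1 and Thy1 ranged from 1.82 to 22.9 RPKM. Among 17 other T cell genes 10 were higher in Wfs1KO than in WT, with Thy1, which stromal cells also express, at 1.27 (SE 0.40, limma adjusted p = 0.835), and Cd3d differed by 1.87 in Wfs1HZ against WT (SE 0.81, limma adjusted p = 1) and by 1.30 without Wfs1HZ replicate 2. Among 13 other B and plasma cell genes 10 were higher in Wfs1KO than in WT. Of all entries 57.4% were higher in that comparison, and 5.64% had an unadjusted limma p under 0.05. Counts for dendritic cells were 5 of 10 higher, with Itgae at 1.17 (SE 0.50, limma adjusted p = 0.876), for neutrophils 7 of 10, for mast cells 8 of 8 and for NK and cytotoxic cells 5 of 8, all in Wfs1KO against WT, and of these genes Itgae alone had an unadjusted limma p under 0.05. No gene named from these lists had an adjusted p under 0.05 in any comparison.

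Other cell types of the preparation also moved between libraries. The summed RPKM of beta cell markers ranged from 32086 to 179874 in WT, from 12565 to 137740 in Wfs1HZ and from 22394 to 91427 in Wfs1KO, that of acinar markers from 9493 to 320653 over all libraries, and that of ductal markers from 721 to 1438, from 509 to 1466 and from 253 to 1972. Endothelial markers had higher means in Wfs1KO than in WT in 12 of 12 genes and fibroblast, stellate and mural markers in 11 of 12, with the same counts in Wfs1HZ against WT. Of all entries 57.4% and 53.2% were higher in these comparisons. Of 8 lymph node stroma and follicle genes 4 were higher in Wfs1KO than in WT, 2 of them, Ccl19 and Madcam1, at an unadjusted limma p under 0.05. Of all entries 5.64% had such a p in that comparison (3.91% higher). In that list Ccl21a has 2 entries, listed at 0 in 10 and in 12 of 12 libraries, whereas Madcam1 was 0.26 to 4.09 RPKM and Cr2 and Fcer2a were above 0 in all 12. The level of each of the 34 immune genes was then set against 6 such signals over the 12 libraries, 204 relations in all, chosen after the data had been seen. Values were log2, p-values came from 100000 permutations, and adjustment was by Benjamini-Hochberg over each coefficient. In 15 relations both adjusted p-values were under 0.05, and 4 libraries of a genotype are too few for a value within it. Relations were computed for the 34 genes only. The share of all entries that would relate as closely is not known, so the 15 cannot be called particular to immune genes.

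Cd68 followed the beta cell markers, with r = 0.88 and rho = 0.91 (permutation p = 0.00023 and 0.00015, adjusted 0.00816 and 0.0102), and r = 0.85 without the 2 libraries farthest from the median. Mrc1 and Cd79a went the other way, with r = −0.81 and rho = −0.83 (permutation p = 0.00076 and 0.00146, adjusted 0.0106 and 0.0288) and r = −0.84 and rho = −0.79 (permutation p = 0.00078 and 0.00315, adjusted 0.0106 and 0.0488), and r = −0.74 and −0.66 without 2 libraries. H2-Ab1 followed the ductal markers with r = 0.87 and rho = 0.85 (permutation p = 0.00024 and 0.00088, adjusted 0.00816 and 0.0224), r = 0.75 without 2 libraries, and so did Cd74 with r = 0.85 and rho = 0.83 (permutation p = 0.0004 and 0.00155, adjusted 0.00907 and 0.0288; 0.73 without 2) and Cd14 with r = 0.84 and rho = 0.78 (permutation p = 0.00076 and 0.00352, adjusted 0.0106 and 0.0488; 0.87 without 2). Against the endothelial and stromal markers Cd68 was negative (r = −0.75 and −0.84) and Mrc1 and Itgax were positive (r from 0.73 to 0.90), as was Cd3g against the stromal markers (r = 0.86); without 2 libraries Itgax and Mrc1 had r = 0.49 and 0.57 against the endothelial markers. Each had both adjusted permutation p-values under 0.05. Ptprc and Cd79a followed the mean olfactory receptor level with r = 0.90 and 0.85 and rho = 0.87 and 0.89 (adjusted permutation p = 0.00907 and 0.00816 for r), and r = 0.75 and 0.76 without 2 libraries. No relation with the acinar markers met this. The part of any of these signals in the genotype differences was not tested.

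**Figure D5:**
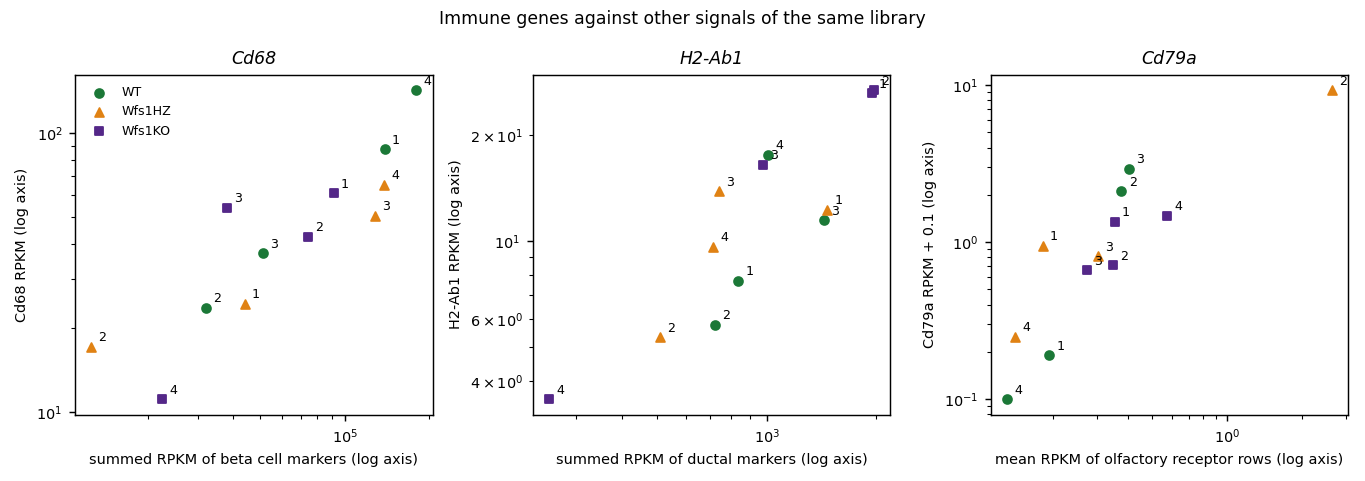
Cd68 against the summed beta cell markers, H2-Ab1 against the summed ductal markers and Cd79a (+ 0.1) against the mean olfactory receptor level, in RPKM on log axes; each point is 1 library with its replicate number. The 3 relations have r = 0.88, 0.87 and 0.85 over 12 libraries, and Wfs1HZ replicate 2 lies far to the right in the last panel.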

How the data were processed

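Islet RNA of 12 mice was converted to cDNA from 10 ng with the Ovation RNA-Seq System V2 and sequenced on a SOLiD 5500xl with 75 and 35 bp reads. The authors mapped reads to mm10 with LifeScope and deposited RPKM values, rounded to 2 decimals, for each animal; the counting tool, its use of strand and the annotation are not given in the sources used here. The edgeR test of the authors needs counts and was not repeated. It gave genes at an FDR under 0.05 for Wfs1KO against WT and against Wfs1HZ, where limma on RPKM called 3 and 0 of 21701 entries. An absence of calls here is therefore no evidence of equal levels. Depth was estimated from genes under 200 nt, whose low RPKM are multiples of 1 read (73.3% to 84.5% within 0.1 read).

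Each pair of genotypes was fitted with limma (3.58.1, R 4.3.3) on log2(RPKM + 0.1), with a variance trend, for 21701 entries with a mean of at least 0.1 RPKM; all 34 members passed. Adjustment was by Benjamini-Hochberg over all entries. Single genes also had an exact two-sided permutation test. The members and lists were chosen with earlier results of these data known, so no list was tested. Tests are printed for members with an unadjusted p under 0.05 or without overlap, or the 3 lowest p, and for other listed genes by the same rule, at most 5 a list; some genes named by that rule are not reported here. Gene positions are from GENCODE M21 (mm10). The fit was also run on simulated independent values without an outlying library or shifts in cell types. These differ from the present data, and the outcome is not used here. Separate animals were sequenced once each. The exact permutation test was run in R. Tables were handled in Python (3.11.15) with pandas (2.3.3), the permutations of the relations with numpy (2.4.6), ranks with scipy (1.17.1) and plots with matplotlib (3.10.9). Alternatives changed the pseudocount, filter, scaling, variance model, samples fitted and replicate block.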

Additional observations from a re-analysis of the deposited data

Results flagged for a closer look

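Dixon's test was applied to RPKM, not to log2 values, within groups of 4 libraries. In 17 of 102 gene and genotype combinations the gap of a library to its nearest neighbour exceeded the critical value. The chance rate of about 1 in 20 holds for independent, normally distributed values. RPKM cannot be negative and can be skewed, and the genes share the same libraries, so the 17 cannot be judged against that rate. All 17 were high values, the side that this scale favours. In Wfs1HZ replicate 2 these were Ptprc at 7.61 RPKM, Itgam at 3.49 RPKM, Aif1 at 2.6 RPKM, Cd3g at 8.44 RPKM and Cd79a at 9.21 RPKM. This is the library with the highest olfactory receptor mean, 2.63 RPKM, and with the highest sums of stromal and erythroid markers. In Wfs1KO replicate 4 they were Mrc1 at 1.48 RPKM, Cx3cr1 at 1.7 RPKM, Cd8a at 0.96 RPKM and Cd4 at 2.15 RPKM, beside an olfactory receptor mean of 0.574 RPKM.

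In WT replicate 3 they were Csf1r at 0.88 RPKM, Ctss at 8.07 RPKM and Cd3g at 2.34 RPKM, and in WT replicate 4 Coro1a at 2.25 RPKM and C1qc at 0.74 RPKM. The others were Cx3cr1 at 0.62 RPKM in WT replicate 2, C1qb at 3.18 RPKM in Wfs1HZ replicate 3 and Aif1 at 2.6 RPKM in Wfs1KO replicate 2. Many of these values stand for few reads, such as about 5.0 of Aif1 in Wfs1HZ replicate 2 and 5.7 of C1qc in WT replicate 4.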

How the results depend on the processing

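No member had an adjusted p under 0.05 under any alternative, and the lowest adjusted p of a named gene was 0.112. Members with an unadjusted p under 0.05 numbered 7 in Wfs1KO against WT with sample weights, and 2 to 7 with each replicate left out, 7 without Wfs1KO replicate 4. In Wfs1KO against Wfs1HZ they numbered 0 with quantile normalization and 0 with median-of-ratios scaling, 2 with all 12 samples in a single fit, 3 with sample weights, 3 without both Wfs1HZ replicate 2 and Wfs1KO replicate 4 (chosen after seeing the data), and 0 to 2 with each replicate left out. In Wfs1HZ against WT they numbered 4 with sample weights and 1 to 3 with each replicate left out. Cd74 in Wfs1HZ against WT turned from −0.64 to 0.0086 with sample weights; the cause was not tested. Calls moved over all 21701 entries too. With sample weights 2066, 2243 and 1539 had an unadjusted limma p under 0.05, in place of 1225, 532 and 511. In Wfs1KO against Wfs1HZ the number was 1280 without both named libraries. It was 923 with quantile normalization, 795 with median-of-ratios scaling and 698 with all 12 samples in a single fit. With each replicate left out the number ran from 918 to 1870 in Wfs1KO against WT and from 340 to 1308 in Wfs1KO against Wfs1HZ. In Wfs1HZ against WT it then ran from 306 to 1087. Of 33 gene results 32 kept their direction in every fit that was possible. Low genes could not be fitted with a minimum mean of 1 RPKM.

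Scaling moved the share of all entries with an unadjusted p under 0.05 that were higher in Wfs1KO than in WT from 69.2% to 56.6% (median-of-ratios) and 47.2% (quantile). Counting all members whatever their p, 26 and 21 of 34 then had higher means, in place of 27. Beside that count, the median log2 fold change of all entries was 0.048 and −0.0009, in place of 0.07. In Wfs1KO against Wfs1HZ leaving out Wfs1HZ replicate 2 moved the median of all entries to 0.28, and leaving out Wfs1HZ replicate 4 to −0.20. In Wfs1HZ against WT the median of the members was −0.01 after quantile normalization.

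Replicate numbers are shared by different animals and were not used as pairs in the main fits. Correlations of same-numbered deviations ran from −0.174 to 0.228. In Wfs1KO against WT, Wfs1KO against Wfs1HZ and Wfs1HZ against WT, 1, 0 and 3 of 4 animals correlated best with their own number. Whether libraries of the same number share a batch was not tested. With the replicate number as a block 4, 1 and 2 members had an unadjusted p under 0.05 and 0 an adjusted one, beside 1091, 395 and 854 of all entries. Depth limits the T cell, B cell and low myeloid genes, such as Cd3g with a median of about 3.5 reads a library.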
